A study of Homo sapiens with 6 samples.

Results

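The p53 target genes examined here are 34 genes whose transcription is known to be raised by the tumour suppressor p53. They were taken by symbol from a fixed list, and each symbol matched 1 of the 20461 Ensembl entries of the count and FPKM tables. The list was chosen with earlier results of these data known, so shares set beside those of all genes only describe it. By known role, 8 belong to cell cycle arrest and feedback on p53, 14 to apoptosis and survival, 4 to DNA repair, and 8 to metabolism and redox balance. RNA sequencing compared 3 control libraries with 3 PDZK1 libraries of ARPE-19, an established line of human retinal pigment epithelium. The control cells carried a control lentivirus, and the PDZK1 cells one made to overexpress PDZK1, which encodes a PDZ-domain scaffold. Both were transduced at a multiplicity of infection of 10 and selected as stable lines in 4 µg/ml puromycin. All 6 libraries came from cells kept for 48 h in 37.5 mM glucose, so the comparison is of PDZK1 against control within high glucose and says nothing of glucose itself.

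The p53 protein is a transcription factor that is stabilised by DNA damage and other stresses. Its targets halt the cell cycle, repair DNA, adjust metabolism or start apoptosis, and MDM2, itself a target, sends p53 for degradation. In cells that enter senescence, the state the study followed in the retinal pigment epithelium, p53 acts mainly through CDKN1A, which encodes the cell cycle inhibitor p21. The study followed p53 and p21 as protein markers of senescence in these cells. Here the question was whether the transcripts of p53 targets differed when PDZK1 was overexpressed.

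Total counts ran from 27970618 to 32804567 per library. PDZK1 itself checked the labels, with 19, 18 and 23 counts under the control lentivirus against 3020, 2541 and 2828 counts under overexpression. Nothing in the labels says that the libraries of a group came from separate cultures, so the p-values measure the spread between these libraries, which may be technical. Of the 15 listed markers of retinal pigment epithelium, 12 had enough counts to be tested, whereas RPE65 and TTR, which define the mature tissue, had 0 counts in every library. In such bulk samples, fewer cells with a transcript and less of it per cell cannot be told apart.

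A p53 binding site is built of half-sites of 10 bases, matched here by the p53 consensus half-site. Promoter windows from RefSeq (GRCh38.p14), 250 bases before and 50 after an annotated start, were matched by symbol for 29 of the 34 genes. An exact half-site, whose consensus is the same on both strands, stood in a window of 6 genes (20.7%), against 8.06% of all 27305 symbols. Genes differ in their number of windows, and per window the shares were 13.3% of 45 and 6.63% of 35116. DDB2 alone had a pair of half-sites at most 13 bases apart, an arrangement found for 0.0366% of symbols. The following matches show the letters, with half-sites in capitals, and were chosen for print after the matches were seen.
DDB2 (chr11:47214979-47214999, plus strand): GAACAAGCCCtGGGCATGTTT
AEN (chr15:88621306-88621315, plus strand): GGGCTTGCCC
FDXR (chr17:74872996-74873005, minus strand): GGGCTTGCCC
FAS (chr10:88991309-88991318, plus strand): GGACAAGCCC
SESN1 (chr6:109009028-109009037, minus strand): GGACAAGTCT
PLK2 (chr5:58460209-58460218, minus strand): AGACTTGCTT
AEN and FDXR held the same 10 letters, 34 and 11 bases before the RefSeq starts of their windows. Both matches lie inside the bounds of these genes in GENCODE release 29, so a start there can lie further upstream. A match is a run of letters in a window and was not tested as a binding site, and none of these 6 genes passed the test of expression described next.

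Of the p53 targets, 3 genes, BBC3, TP53INP1 and TP53I3, rose in the PDZK1 libraries, by 1.31, 1.14 and 1.17 times, and none fell. BBC3 encodes PUMA, a BH3-only protein that triggers apoptosis at mitochondria. TP53INP1 encodes a stress protein that acts with p53 in apoptosis and takes part in autophagy, and TP53I3 encodes a quinone oxidoreductase linked to reactive oxygen species. The test was edgeR's quasi-likelihood test over 13645 genes with a Benjamini-Hochberg adjusted p under 0.05, n = 3 libraries per group. Of the 34 targets, 33 had enough counts, and 3 of them were higher past the threshold (9.09%), against 1.41% of all tested genes (193) and 3.83% in either direction (522). None was lower past it by edgeR, against 2.41% of all genes (329) by edgeR, and DESeq2 also called none lower. By edgeR, 0 were lower at an unadjusted p under 0.05, whereas 5 were higher, against 8.13% of all genes. The other 2 of these 5 were MDM2 and POLH. At that cut 17.5% of all genes passed in either direction, the share to set beside the unadjusted counts of each list in this fit.

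**Figure D1:**
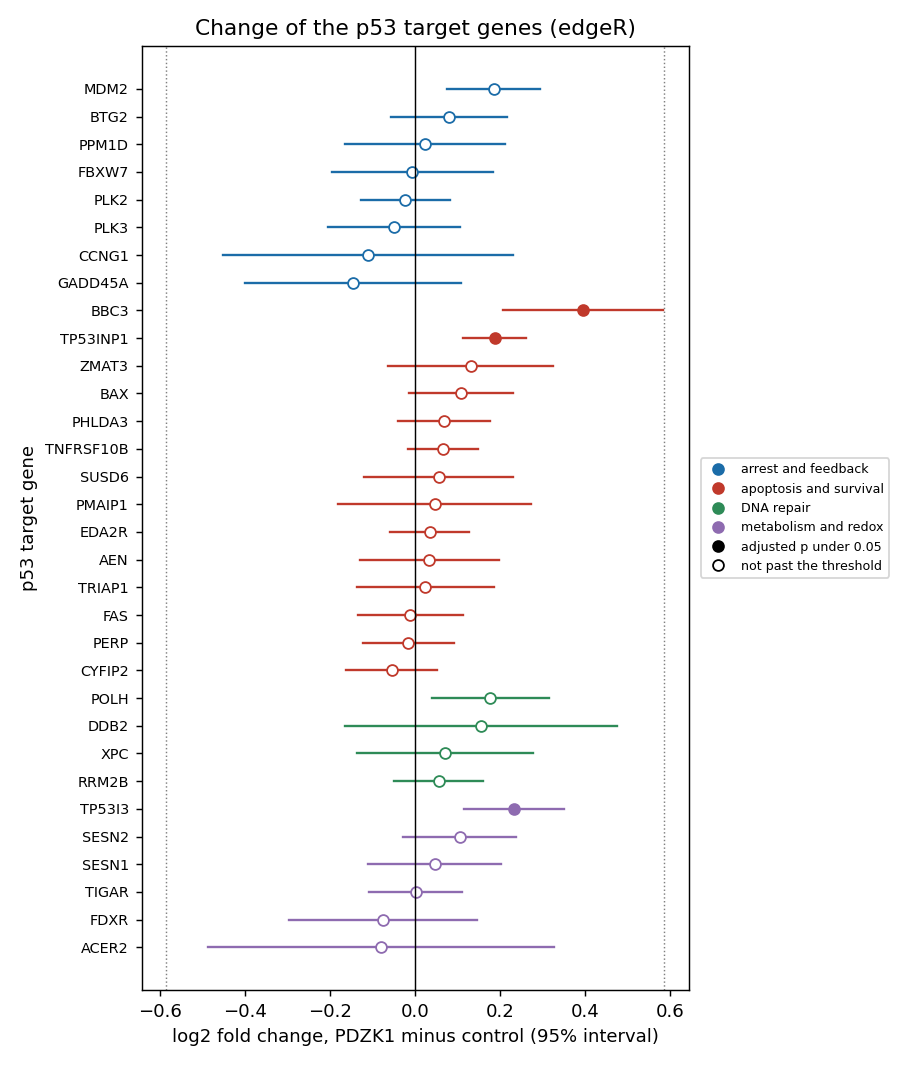
Log2 fold change (x axis, PDZK1 minus control, edgeR) of 32 p53 target genes (y axis), coloured by role, with 95% intervals as lines; filled circles passed the adjusted threshold and dotted lines mark a 1.5-fold change. BBC3, TP53INP1 and TP53I3 are the 3 filled circles, and every interval drawn lies inside the dotted lines; GDF15 (-0.20, interval -2.31 to 1.91) is left out for its width and SPATA18 was not tested.

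BBC3 (ENSG00000105327, chromosome 19, 47220822 to 47232766, minus strand, GRCh38) stood at 11.2, 10.8 and 11.9 CPM (counts scaled to a common library size) in control replicates 1 to 3. In PDZK1 replicates 1 to 3 it stood at 15.2, 14.7 and 14.7 CPM. The groups did not overlap, and the lowest PDZK1 library lay above the highest control library. On the log2 scale the difference was 0.39 (SE 0.084, 95% interval from 0.21 to 0.58, edgeR adjusted p 0.0322), from 11.3 ± 0.578 to 14.9 ± 0.297 CPM (SD, n = 3 each). Only microRNA genes overlap BBC3 in GENCODE release 29.

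TP53INP1 (ENSG00000164938, chromosome 8, 94925972 to 94949411, minus strand) was more abundant and less variable. Its level was 107, 105 and 107 CPM in the control libraries and 123, 122 and 119 CPM in the PDZK1 libraries. Both groups were tight, and they did not overlap. Its log2 fold change was 0.19, with an SE of 0.033 and a 95% interval from 0.11 to 0.26 (edgeR adjusted p 0.0149), from 106 ± 1.28 to 121 ± 2.08 CPM (SD, n = 3 each). NDUFAF6 overlaps it on the opposite strand, and the log2 fold change of NDUFAF6 was 0.011 (edgeR adjusted p 0.974).

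TP53I3 (ENSG00000115129, chromosome 2, 24077433 to 24085861, minus strand) stood at 29.2, 28.8 and 29.1 CPM in the control libraries. It stood at 34.5, 33.05 and 34.7 CPM in the PDZK1 libraries, so the groups did not overlap. TP53I3 thus differed by 0.23 on the log2 scale, with an SE of 0.052 and a 95% interval from 0.11 to 0.35 (edgeR adjusted p 0.0417), from 29.03 ± 0.207 to 34.1 ± 0.919 CPM (SD, n = 3 each). FAM228B overlaps it on the opposite strand, with a log2 fold change of -0.28 (edgeR adjusted p 0.481), and strandedness is not stated, so reads of both cannot be told apart.

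These calls did not hold with most libraries left out. With any 1 of the 5 libraries other than control replicate 3 left out, none of the 34 targets passed the edgeR threshold (4 to 6 higher and 0 lower at an unadjusted p under 0.05). Without control replicate 3, BBC3, TP53INP1 and MDM2 passed, and TP53I3 did not (adjusted p 0.051). On log2(FPKM + 1) with limma, BBC3 alone passed. The log2 fold change moved little over the 15 alternatives, from 0.34 to 0.43 for BBC3, 0.18 to 0.20 for TP53INP1 and 0.20 to 0.26 for TP53I3. Fold changes on log2(FPKM + 1) understate the change of weakly expressed genes.

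The promoter window of BBC3 is shown because the gene rose. Neither it nor the window of TP53I3 held an exact half-site before the start, and TP53INP1 had no window in the table. The stretch printed is the part before the start that touches no annotated exon (151 of 250 bases), whereas all 250 bases of the TP53I3 window lay in exons of GENCODE release 29 and are not shown. Capitals mark the stretch closest to the half-site consensus, from which it differs at 1 base, and 57.5% of all windows hold a stretch that close or closer before the start.
BBC3 (chr19:47232767-47232917, minus strand): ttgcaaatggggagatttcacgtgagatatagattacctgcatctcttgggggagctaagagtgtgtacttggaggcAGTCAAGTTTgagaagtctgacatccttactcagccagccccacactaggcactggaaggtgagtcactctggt

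The 8 genes of arrest and feedback gave no call, with a median log2 fold change of -0.015, against -0.00025 over all tested genes. Above 0 were 3 and below 0 were 5, and DESeq2 called MDM2 alone. The median was 0.025 without control replicate 3 and 0.017 on log2(FPKM + 1), so its sign is not firm. MDM2 (ENSG00000135679, chromosome 12), the ubiquitin ligase that limits p53, stood at 312, 303 and 341 CPM in the control libraries and at 350, 375 and 361 CPM in the PDZK1 libraries. Its groups did not overlap, but control replicate 3 came close to the PDZK1 libraries. The difference of 0.18 on the log2 scale, with an SE of 0.049 and a 95% interval from 0.076 to 0.29, missed the threshold (edgeR adjusted p 0.0734). DESeq2 gave an adjusted p of 0.019, and edgeR without control replicate 3 gave 0.00333. MDM2 passed in only these 2 of 15 alternatives, and its adjusted p reached 0.262 by edgeR without control replicate 2. The carboxypeptidase M gene overlaps MDM2 on the opposite strand (log2 fold change 0.094, edgeR adjusted p 0.777).

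The other 7 genes of this role had overlapping groups. The phosphatase gene PPM1D, which switches off the damage response, had a log2 fold change of 0.024, and BTG2, an antiproliferative factor, 0.080. PLK2 and PLK3, polo-like kinases of the stress response, had -0.023 and -0.050, and FBXW7, which marks cyclin E for degradation, -0.0069. GADD45A, a damage-induced arrest protein that also takes part in repair, stood at 135, 135 and 167 CPM in the control libraries and 128, 143 and 123 CPM in the PDZK1 libraries (log2 fold change -0.15, edgeR adjusted p 0.545). CCNG1, the gene of cyclin G1, which acts back on MDM2, stood at 452, 490 and 609 CPM against 463, 532 and 440 CPM (log2 fold change -0.11, edgeR adjusted p 0.748). In both genes control replicate 3 was the highest of the 6 libraries, and 1 numbered pseudogene of CCNG1 is annotated.

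Of the 14 genes of apoptosis and survival, BBC3 and TP53INP1 passed the threshold (14.3%, against 1.41% of all genes higher). In all, 11 were above 0 and 3 below, with a median log2 fold change of 0.051. The median was 0.083 without control replicate 3, where 6 genes were higher at an unadjusted p under 0.05 in place of 2. Of all genes, 9.52% were higher at that cut in that fit and 8.13% in the main fit. BAX, the pore-forming protein that PUMA acts upon, stood at 96.0, 92.8 and 106 CPM in the control libraries and 106, 110 and 102 CPM in the PDZK1 libraries. Control replicates 1 and 2 lay below every PDZK1 library, but control replicate 3 did not, and the log2 fold change of 0.11 missed the threshold (95% interval -0.016 to 0.23, edgeR adjusted p 0.358). PMAIP1, which encodes NOXA, another BH3-only protein, had a log2 fold change of 0.046 (95% interval -0.18 to 0.27) and was highest in PDZK1 replicate 1 at 20.4 CPM, against 15.9 to 17.9 CPM in the other 5 libraries. Interferon response genes also stood highest in that library, at a summed 699 CPM over 12 genes against 350.1 to 392.1 CPM in the other 5, and their part in the PMAIP1 value was not tested. The 12 genes gave no call by edgeR or DESeq2, with 11 above 0, a median of 0.33, and 0 higher and 1 lower at an unadjusted p under 0.05 by edgeR.

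The death receptor genes of this role differed little. FAS had a log2 fold change of -0.012 (95% interval -0.13 to 0.11), TNFRSF10B, a receptor for TRAIL, 0.065 (-0.017 to 0.15), and EDA2R, a receptor of the same family, 0.035 (-0.058 to 0.13). Control libraries of EDA2R reached 69.8 CPM and PDZK1 libraries began at 69.8 CPM, so its groups were separate only past the first decimal. The nuclease gene AEN, the AKT inhibitor PHLDA3, the membrane protein genes PERP and SUSD6, and the RNA-binding ZMAT3 had log2 fold changes of 0.034, 0.068, -0.016, 0.056 and 0.13. CYFIP2, linked to actin regulation, had -0.056, and TRIAP1, which protects cells from apoptosis, 0.024. ADAM19, which overlaps CYFIP2 on the opposite strand, was itself higher (log2 fold change 0.45, edgeR adjusted p 0.0187).

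The 4 genes of DNA repair were all above 0, none past the threshold by edgeR or DESeq2, with 1 higher and 0 lower at an unadjusted p under 0.05 and a median log2 fold change of 0.11. POLH, the polymerase that copies past ultraviolet lesions, stood at 51.2, 50.5 and 55.3 CPM in the control libraries and 59.6, 62.3 and 55.3 CPM in the PDZK1 libraries. PDZK1 replicate 3 and control replicate 3 came within 0.1 CPM of each other, and the log2 fold change was 0.18 (95% interval 0.040 to 0.31, edgeR adjusted p 0.163). DDB2, which finds ultraviolet damage and carries the pair of half-sites printed above, stood at 23.5, 23.6 and 32.0 CPM against 29.5, 32.1 and 26.2 CPM. Its groups overlapped, since control replicate 3 lay level with the highest PDZK1 library (log2 fold change 0.15, 95% interval -0.17 to 0.47, edgeR adjusted p 0.633). XPC, the partner of DDB2 in damage recognition, and RRM2B, the p53-induced subunit of ribonucleotide reductase, had log2 fold changes of 0.070 and 0.056. Leaving out control replicate 3 gave a median of 0.19, and leaving out control replicates 1 or 2 gave 0.053 or 0.059. A numbered pseudogene is annotated for POLH and TRIAP1, with which reads could be shared.

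Of the 8 genes of metabolism and redox balance, 7 could be tested, and TP53I3 alone passed (14.3%, against 1.41% of all genes higher). The median log2 fold change was 0.00076, and 0.040 without control replicate 3. SESN2, a sestrin that restrains mTORC1 and is also induced by the integrated stress response, stood at 38.4, 41.2 and 43.9 CPM in the control libraries and 43.5, 44.2 and 44.9 CPM in the PDZK1 libraries (log2 fold change 0.10, 95% interval -0.028 to 0.24, edgeR adjusted p 0.410). Control replicate 3 lay among the PDZK1 libraries. SESN1, the other sestrin here, had a log2 fold change of 0.046, TIGAR, a brake on glycolysis, 0.00076, FDXR, ferredoxin reductase, -0.075, and the ceramidase gene ACER2 -0.080. GDF15, a secreted stress cytokine and a common marker of p53 activity, had 27, 12 and 0 counts under control against 9, 8 and 18 under PDZK1, so its fold change had an interval of -2.31 to 1.91. SPATA18, which takes part in mitochondrial quality control, had 0, 0 and 2 counts against 0, 4 and 0 and was not tested. A count of 0 allows up to 3 counts, or 0.0915 to 0.109 CPM, and covers counting error only.

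**Figure D2:**
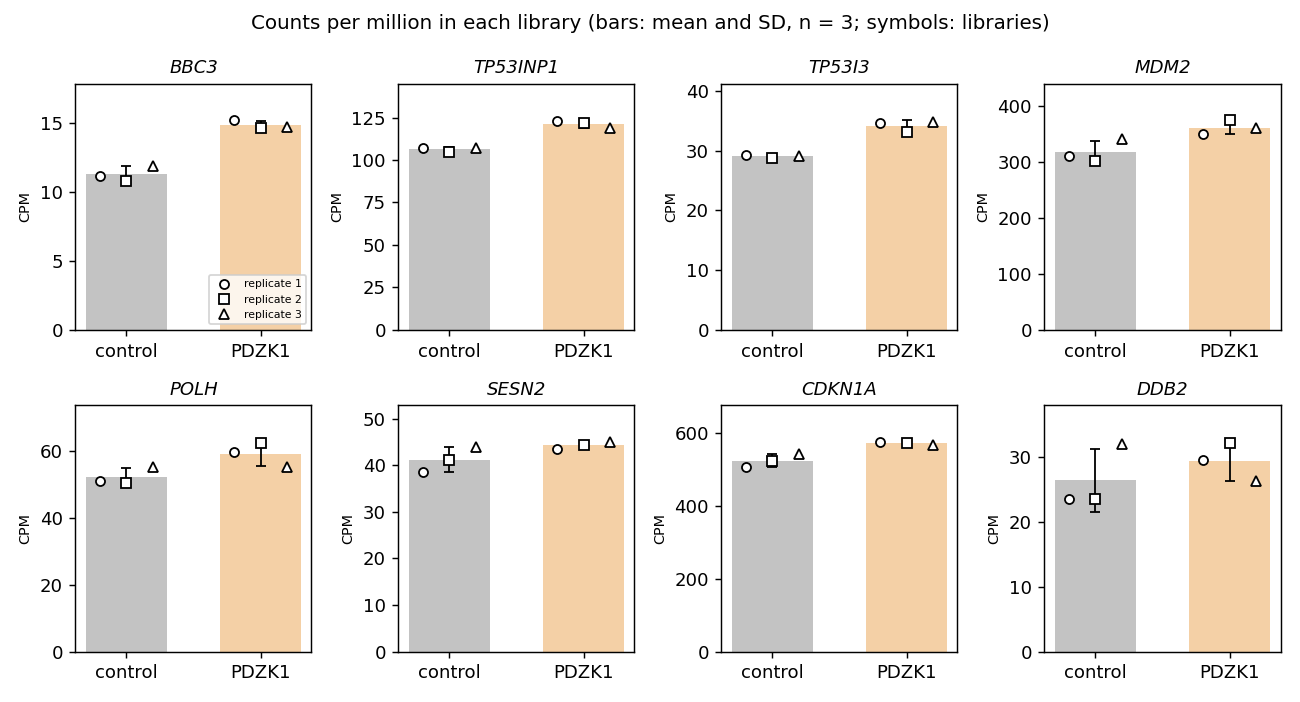
CPM (y axis, from 0) of 8 genes in the control and PDZK1 groups (x axis), with bars for the mean, lines for the SD over 3 libraries and a symbol for each replicate. BBC3, TP53INP1 and TP53I3 are separate between groups, and the groups of SESN2 and DDB2 overlap. Control replicate 3 (triangle) is the highest control library for BBC3, MDM2, POLH, SESN2, CDKN1A and DDB2.

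Levels between genes are compared on FPKM, which divides by transcript length. Mean FPKM over the 6 libraries ran from 0.00644 for SPATA18 to 202 for PLK2, and 23 of the 34 genes had at least 10. PLK2 (202), CCNG1 (188), BAX (95.3) and GADD45A (94.6) led the order, and MDM2 stood at 45.2. In both of the first pairs the control libraries of the neighbours overlapped in FPKM, so their order is not firm. Of the genes that rose, TP53I3 (18.9) and TP53INP1 (18.6) lay near the middle, and BBC3 (6.88) among the lower ones. Only ACER2, GDF15 and SPATA18 had a mean FPKM under 2.

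**Figure D3:**
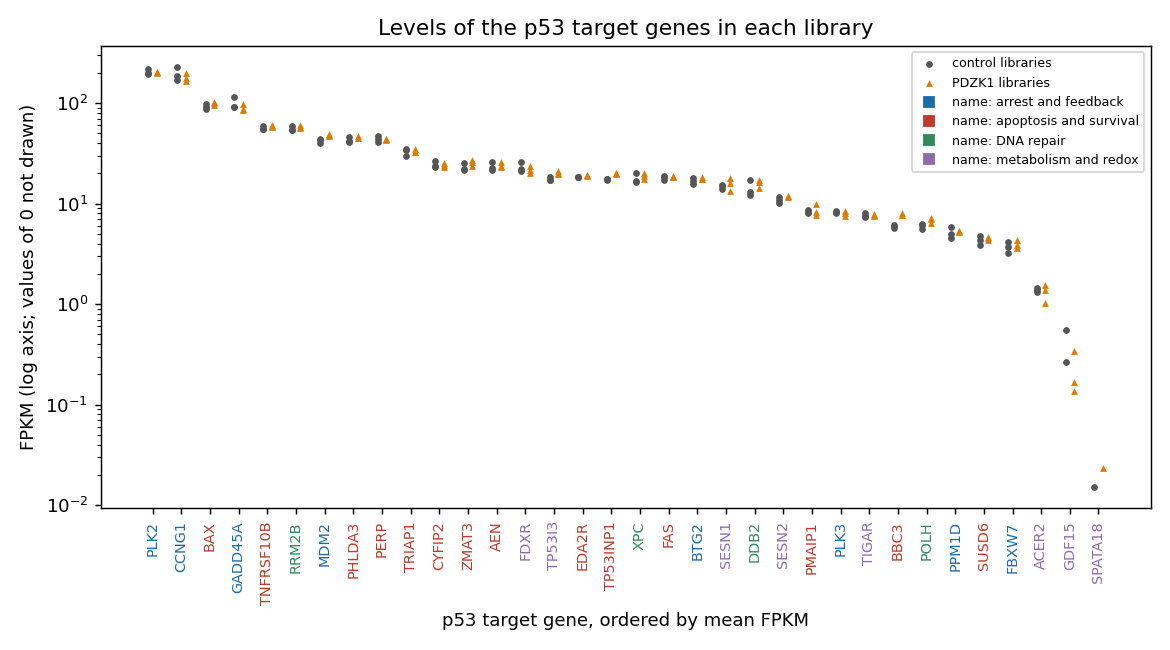
FPKM (y axis, log scale) of each of the 34 p53 target genes (x axis, ordered by mean, names coloured by role) in the 3 control libraries (circles) and 3 PDZK1 libraries (triangles); values of 0 are not drawn. Levels span from PLK2 at a mean of 202 to SPATA18 at 0.00644, and the groups lie on each other for most genes.

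The changes were small against a 1.5-fold change. Leaving out GDF15, log2 fold changes of the tested targets ran from -0.15 for GADD45A to 0.39 for BBC3, with a median of 0.046 over all 33. The 95% interval lay inside a 1.5-fold change in either direction for 32 of 33 (97.0%), against 78.4% of all tested genes. Above 0 were 22 and below 0 were 11, against 49.9% above 0 among all genes. Groups did not overlap, with PDZK1 higher, in 6 targets (18.2%), against 11.6% of all genes, and in 0 with PDZK1 lower, against 12.3% (23.9% in either direction).

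Variation among libraries of a group ran along the list. Control replicate 3 held the highest CPM of the 6 libraries in 11 of 33 targets (33.3%), against 21.4% of all tested genes. These were PPM1D, CCNG1, BTG2, GADD45A, PLK2, AEN, TRIAP1, PERP, CYFIP2, XPC and FDXR. PDZK1 replicate 2 held the highest in another 11, among them MDM2, BAX, ZMAT3 and DDB2, against 16.3% of all genes. Control replicates 1 and 2 held the lowest in 9 and 12 targets (27.3% and 36.4%), against 15.9% and 15.2% of all genes.

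The median deviation of log2 CPM over the targets, from the mean of the 6 libraries, was -0.071, -0.055 and 0.061 in control replicates 1 to 3. It was -0.0098, 0.071 and -0.0044 in PDZK1 replicates 1 to 3, so control replicate 3 lay above 2 of the PDZK1 libraries. Cell cycle genes that p53 is known to lower through p21, such as CCNB1 and PLK1, stood highest in the same libraries, control replicate 3 (0.27) and PDZK1 replicate 2 (0.18). They stood at -0.096 and 0.030 in control replicates 1 and 2, and at -0.14 and -0.19 in PDZK1 replicates 1 and 3. The part of this in the values of the targets was not tested. Without control replicate 3 the median change of the targets was 0.088 and 14 targets (42.4%) were higher at an unadjusted p under 0.05, against 9.52% of all genes in that fit. With it they were 5 (15.2%), against 8.13% of all genes. Without PDZK1 replicate 2, which also stood high, they were 4 (12.1%), against 7.47% of all genes in that fit.

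**Figure D4:**
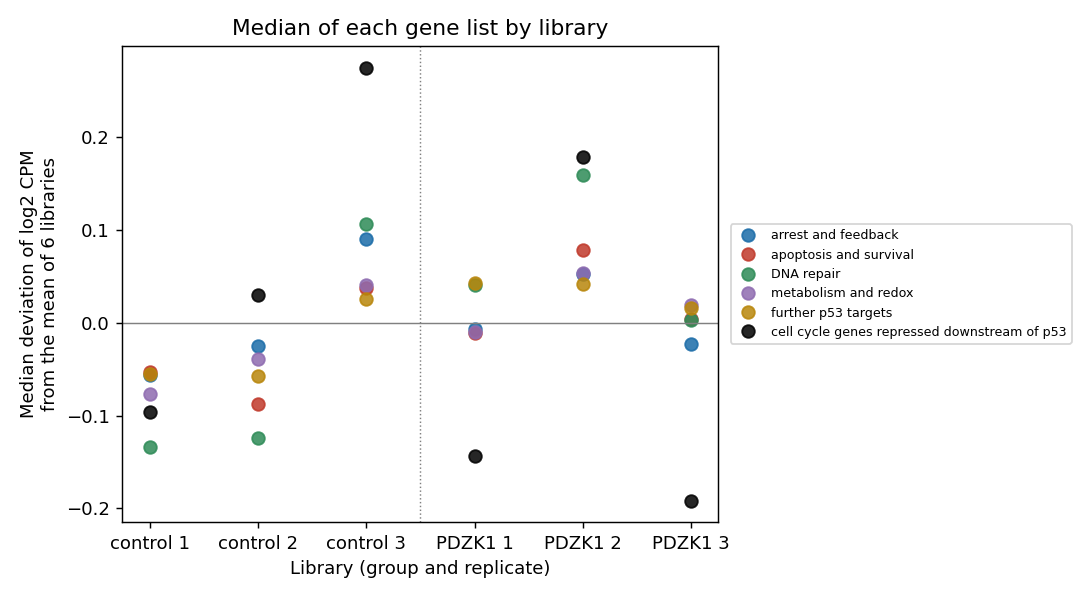
Median deviation of log2 CPM from the mean of the 6 libraries (y axis) for 6 gene lists (colours) in each library (x axis; the dotted line parts the groups). Control replicate 3 (0.11 for DNA repair, 0.27 for the cell cycle genes) stands above the other control libraries in every list. PDZK1 replicate 2 (0.16 and 0.18) stands above the other PDZK1 libraries except for further p53 targets. There PDZK1 replicate 1 (0.0433) lies just above it (0.0414).

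The genes that govern p53 gave no call. Of 22 genes of the p53 family and its regulators, 20 were tested, 9 above 0 and 11 below, with a median log2 fold change of -0.012. None passed by edgeR or DESeq2, and 2 were lower and 0 higher at an unadjusted p under 0.05. MDM4, the partner of MDM2 in restraining p53, stood at 33.6, 33.2 and 35.9 CPM under control and 37.0, 34.97 and 34.7 CPM under PDZK1, so its groups overlapped. Its log2 fold change was 0.054 (95% interval -0.074 to 0.18, edgeR adjusted p 0.697).

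Of 50 further p53 targets outside the 34, 44 were tested, 29 above 0 and 15 below, with a median log2 fold change of 0.061. Of all tested genes, 49.9% were above 0. KITLG (ENSG00000049130), the gene of stem cell factor, alone passed the threshold, and it fell. That is 1 lower and 0 higher of the 44, against 2.41% lower and 1.41% higher of all tested genes. KITLG had 91, 135 and 87 counts under control against 11, 2 and 12 under PDZK1 (log2 fold change -3.71, edgeR adjusted p 0.00308). At an unadjusted p under 0.05, 9 were higher and 1 lower, against 8.13% of all genes higher and 17.5% in either direction. CDKN1A stood at 506, 522 and 542 CPM in the control libraries and 574, 573 and 568 CPM in the PDZK1 libraries. Its groups did not overlap, and the log2 fold change of 0.13 (95% interval 0.043 to 0.21) missed the threshold (edgeR adjusted p 0.103). DESeq2 also called CDKN1A and PRDM1 higher, in a fit that called 1.95% of all genes higher. PRDM1 had 0 counts in each control library and 10, 17 and 4 under PDZK1, too few for the main test. It entered the fits that called it only through the PDZK1 libraries, so those calls are not read as a result about it. Without control replicate 3, edgeR called 6 of the 50 listed genes higher, PRDM1 again among them. That fit called 2.51% of all tested genes higher.

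Of the 18 cell cycle genes known to be lowered downstream of p53, 17 were below 0 and 1 above, with a median log2 fold change of -0.12. The median was 0.0042 without control replicate 3, so the direction of this list rested on that library. None passed by edgeR or DESeq2, with 2 lower and 0 higher at an unadjusted p under 0.05, and without that library MYBL2 alone passed, lower. Of 10 genes of the integrated stress response, a list that shares SESN2 and GDF15 with the p53 targets, 6 were above 0 and 4 below (median 0.076). None passed by edgeR or DESeq2, with 2 higher and 1 lower at an unadjusted p under 0.05 by edgeR. Among retinal pigment epithelium markers LHX2 fell (log2 fold change -0.73, edgeR adjusted p 0.00129), and of the 12 tested 6 were above 0 and 6 below, with a median of -0.0047. BEST1, a chloride channel gene of this list named after its values were seen, had 11459 counts in PDZK1 replicate 1 against 124 to 181 in the other 5 libraries, so that library stood apart on it (log2 fold change 4.55, edgeR adjusted p 0.420). Summed fibroblast markers, of which 3 of 8 were tested, ran from 68.1 to 81.5 CPM under control and from 82.3 to 90.3 CPM under PDZK1, and none passed by edgeR or DESeq2 (2 higher and 0 lower at an unadjusted p under 0.05), although PDGFRB did without control replicate 3. Most of that sum was PDGFRB, at 71.3, 64.4 and 76.8 CPM under control and 83.8, 76.5 and 83.5 CPM under PDZK1. COL1A1 stood at 4.71, 3.30 and 4.20 CPM under control and 6.12, 5.58 and 5.96 CPM under PDZK1 (log2 fold change 0.53, edgeR adjusted p 0.109). All 3 tested fibroblast markers were above 0, whereas COL1A2, DCN, LUM and THY1 had 0 counts in every library. The endothelial and immune markers, of which KDR and CD68 were tested, summed to between 136 and 166 CPM under control and between 127 and 130 CPM under PDZK1. None passed by edgeR or DESeq2 (0 higher and 2 lower at an unadjusted p under 0.05), and the part of these marker lists in the values of the p53 targets was not tested. Most of the endothelial and immune sum was CD68, at 131, 146 and 160 CPM under control and 123, 126 and 126 CPM under PDZK1. CDH5, PTPRC and CD3E had 0 counts in every library.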

How the data were processed

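RNA libraries were made with the VAHTS Universal V6 kit, per the labels. The submitters' processing notes name fastp 0.20.1, HISAT2 2.2.1 and GRCh38; the counting program and strandedness are not given in the sources used here. The authors deposited estimated counts as whole numbers per gene, unscaled, and FPKM, scaled by transcript length and mapped fragments. Of each deposited file, 3 columns match no sample and were not used. The 853 assembled loci (0.519% to 0.536% of counts) were left out.

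Counts were tested with edgeR 4.0.16 in R 4.3.3 after filterByExpr, with TMM scaling and the robust quasi-likelihood test without covariates. CPM use TMM-scaled totals, and log2 CPM a prior count of 2. Intervals are 95% model intervals. Coordinates of genes are from GENCODE release 29 (GRCh38, matching 20229 identifiers). Scripts were tested on simulated data.

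Total counts ran from 27970618 to 32804567 per library, and floors of 3 counts cover counting error only.

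The 34 genes and the other lists were chosen with earlier results of these data known. The rule names all 34 genes, PDZK1, MDM4, CDKN1A and 1 gene that is not reported here, and up to 5 called genes of each other list, with promoters for called members; names outside it were picked with values in view. The other lists are p53 family and regulators, further p53 targets, cell cycle genes, integrated stress response, interferon response, and markers of retinal pigment epithelium, fibroblasts, and endothelial and immune cells. Alternatives were DESeq2 1.42.0, limma 3.58.1 on log2 FPKM (pseudocounts 1 and 0.1, mean FPKM of at least 0.5 or no filter), RLE or no scaling, a filter of 1 count, assembled loci kept, a fold change above 1.5, a replicate block and each library left out.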

Additional observations from a re-analysis of the deposited data

How the results depend on the processing

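The count of 3 p53 targets past the threshold was 3 under RLE scaling, library totals, a filter of 1 count and with assembled loci kept, and 4 with DESeq2. It was 1 in each of the 3 fits on FPKM, and 0 with a fold change above 1.5 also required, which the stricter criterion explains. It ran from 0 to 3 with each library left out. No target was called lower in any fit. Over all genes, 522 passed (193 higher, 329 lower), against 814 (318, 496) with DESeq2, 191 (75, 116), 187 (72, 115) and 184 (72, 112) on FPKM with a pseudocount of 1, of 0.1 and without the filter, and 171 (53, 118) with a fold change above 1.5. With each library left out the count ran from 181 to 875 (66 to 347 higher, 115 to 528 lower), the highest without control replicate 3. With library totals only, 46.6% of calls were higher, against 37.0%. The cause was not tested where none is named. In the other lists 2 genes passed, 4 with DESeq2, 1 with either pseudocount on FPKM, 1 with the replicate block, and 2 to 10 with a library left out.

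The residuals of replicates 1, 2 and 3 in both groups correlated at -0.046, -0.056 and -0.14, so the numbers gave no pairing. With the replicate block 163 genes passed (59 higher, 104 lower) and 0 of the p53 targets, 5 of which were higher at an unadjusted p under 0.05. The adjusted p was then 0.121 for BBC3, 0.0839 for TP53INP1, 0.151 for TP53I3 and 0.0548 for KITLG.

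The medians of the roles moved by less than the spread between libraries, except metabolism and redox, from 0.00076 to 0.049 and 0.052 on FPKM with pseudocounts of 1 and 0.1. Some changes, none past the threshold, turned sign. FBXW7 was 0.011 with library totals and 0.073, 0.090 and 0.073 in the FPKM fits (pseudocount 1, 0.1, no filter), FAS 0.0061, 0.021, 0.022 and 0.021 in the same order, and CYFIP2 0.0016, 0.0018 and 0.0016 in the FPKM fits. PERP was 0.0022 with library totals and GDF15 0.054 with the replicate block. With a library left out, ranges over 0 were -0.22 to 0.074 for ACER2, -0.026 to 0.11 for AEN, -0.20 to 0.023 for CCNG1, -0.086 to 1.61e-05 for CYFIP2, -0.054 to 0.029 for FAS, -0.058 to 0.070 for FBXW7, -0.15 to 0.040 for FDXR, -0.75 to 0.85 for GDF15, -0.062 to 0.034 for PERP, -0.059 to 0.028 for PLK2, -0.068 to 0.12 for PMAIP1, -0.049 to 0.12 for PPM1D, -0.0030 to 0.11 for SESN1, -0.017 to 0.13 for SUSD6, -0.023 to 0.037 for TIGAR and -0.046 to 0.078 for TRIAP1.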
